A study of Mus musculus with 6 samples.

Results

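The stem cell transcription factor heptad is the set of 7 factors Gata2, Tal1, Lyl1, Lmo2, Runx1, Fli1 and Erg, which share enhancers in blood stem and progenitor cells. Its members were taken as the array probe sets whose annotation names 1 of these genes and no other, which gave 15 of 34945 probe sets that name a single gene. Runx1 had 6 of them, Gata2, Fli1 and Erg had 2 each, and Tal1, Lyl1 and Lmo2 had 1 each. The 7 genes were set among 18193 genes on the array.

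RNA was measured in haematopoietic stem cells (HSC) that had been sorted from bone marrow by the surface phenotype CD150+ CD48- KSL. The mice came from crosses between Lig4mut/+ parents. WT mice were Lig4+/+ littermates, Lig4mut mice carried the mutant allele, and all were 6 to 8 weeks of age. Lig4 encodes DNA ligase IV, the enzyme that seals broken DNA ends, and the series is about HSC maintenance and this gene. There were 3 arrays of each genotype, 6 in all, described by the submitters as biological replicates. The sources used here give neither the nature of the mutation, nor the strain, nor whether 1 mouse or several went into an array. Array values are log2 levels, and the number of arrays limits their precision.

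The members act as a network that keeps progenitor genes on and binds its own genes. Tal1 and Lyl1 are related basic helix-loop-helix factors that pair with E proteins and bind E-box DNA. Lmo2 binds no DNA itself and bridges these dimers to Gata2, a zinc-finger factor of GATA sites. Runx1 binds DNA with its partner Cbfb, and Fli1 and Erg are closely related ETS-family factors that also serve blood vessel endothelium. Loss of Tal1, Lmo2, Gata2 or Runx1 in the embryo prevents definitive blood formation, and Erg, Gata2 and Runx1 are needed at normal dose in adult HSC.

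Gata2 and Tal1 are the members for which every probe set lay lower on all 3 Lig4mut arrays than on any WT array, so the sequence before their start sites is given here. The windows are 250 bases upstream of RefSeq start sites on GRCm38.p6, plus strand, 5′ to 3′, in lower case, with motif matches in capitals. Tal1 is shown for the first of its 2 listed start sites (chr4:115056176-115056425), Gata2 for both, the upstream one (chr6:88193641-88193890) and the downstream one (chr6:88198414-88198663).
Tal1, upstream start: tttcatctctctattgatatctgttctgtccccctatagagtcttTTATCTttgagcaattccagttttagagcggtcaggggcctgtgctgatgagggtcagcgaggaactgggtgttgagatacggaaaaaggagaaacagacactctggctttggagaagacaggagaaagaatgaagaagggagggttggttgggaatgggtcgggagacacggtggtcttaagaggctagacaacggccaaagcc
Gata2, upstream start: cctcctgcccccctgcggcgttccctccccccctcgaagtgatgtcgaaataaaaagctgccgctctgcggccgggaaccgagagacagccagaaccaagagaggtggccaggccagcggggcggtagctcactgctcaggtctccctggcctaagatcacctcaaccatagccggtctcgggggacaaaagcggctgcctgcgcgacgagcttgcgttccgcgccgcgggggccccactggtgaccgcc
Gata2, downstream start: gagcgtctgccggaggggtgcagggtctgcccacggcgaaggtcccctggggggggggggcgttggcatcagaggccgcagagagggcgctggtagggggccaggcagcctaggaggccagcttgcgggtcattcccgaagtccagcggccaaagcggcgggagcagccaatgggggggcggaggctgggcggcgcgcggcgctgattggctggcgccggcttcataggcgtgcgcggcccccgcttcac
The motifs searched on both strands were AGATAA for GATA factors, CANNTG for the E-box, CCGGAA for ETS factors and TGTGGT for Runx factors. The Tal1 window held 1 match, a GATA motif on the minus strand at bases 205 to 200 before the start, and neither Gata2 window held any. The window at the other Tal1 start site, not shown, held none either. Among 32851 windows of the same length in the RefSeq table, 9.99% held the GATA motif, 66.2% the E-box, 12% the ETS motif and 14% the Runx motif. Of the heptad, 5 genes with 10 start sites had an entry, and 2 of these windows held the GATA motif, 3 the E-box, 2 the ETS motif and 0 the Runx motif. A match describes the letters of the window and is no evidence of binding.

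Tal1 had the lowest values in Lig4mut relative to WT of the 7 genes. In WT the log2 level was 9.93 in replicate 1, 10.16 in replicate 2 and 10.77 in replicate 3, and in Lig4mut it was 7.98, 8.87 and 8.84 in the same order, which is used for every gene. Every Lig4mut array lay below every WT array, with a gap of over 1 log2 unit between the groups. The difference, Lig4mut minus WT, was -1.73 ± 0.35 (SE, n = 3 per genotype), a 3.31-fold lower level, with a 95% interval of -2.62 to -0.83. After adjustment over all genes it missed the threshold of 0.05 (limma, adjusted p = 0.138). Leaving out any 1 array gave -1.90 to -1.43 with adjusted p-values of 0.132 to 0.362. In bulk RNA, fewer cells that express a gene and less RNA per cell cannot be told apart, here and for all genes that follow.

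Of the 7 genes, each taken at its brightest probe set, 6 had lower and 1 had higher values in Lig4mut, and none passed the threshold of 0.05 after Benjamini-Hochberg adjustment. Of all genes 0.011% passed by limma, 2 genes that are no members, and of all probe sets 0.00286%, a single one. At an unadjusted p under 0.05 there were 2 lower members, Tal1 and Erg, against 4.18% of all genes lower, and 0 higher members, against 15.5% of all genes higher. Under 14 alternative settings Erg stayed below that threshold in only 3, and Tal1 in all 14. In 3 of the 7, Tal1, Gata2 and Erg, all Lig4mut arrays lay below all WT arrays, and in none above them. Over all genes 5.65% were separated downwards and 21% upwards. The members are bright genes, and bright genes lay lower as a class. Among the 3123 genes at least as bright as Tal1, the dimmest of the 7, 10.4% were separated downwards and 4.87% upwards, and 62.2% had lower values, with a median difference of -0.13. The median of the 7 was -0.65 and that of all genes 0.18. The level cut at Tal1 was chosen after the values were seen, and with 7 genes the counts are a description.

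At the level of probe sets, 9 of the 15 lay lower and 6 higher, where 44.7% of all probe sets lay lower. The median of the 15 was -0.11, against 0.08 over all 34945. Arrays were separated downwards for 4 probe sets, both of Gata2, that of Tal1 and 1 of Erg, where 7.13% of all probe sets were. They were separated upwards for 1 probe set of Runx1, where 16.6% of all were. Unadjusted p-values under 0.05 went to 3 lower members, Tal1, a Gata2 and an Erg probe set (5.3% of all), and to 0 higher ones (12.2% of all). The 7 brightest probe sets, 1 per gene, thus held 6 lower values, and the 8 others held 3 lower and 5 higher.

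**Figure D1:**
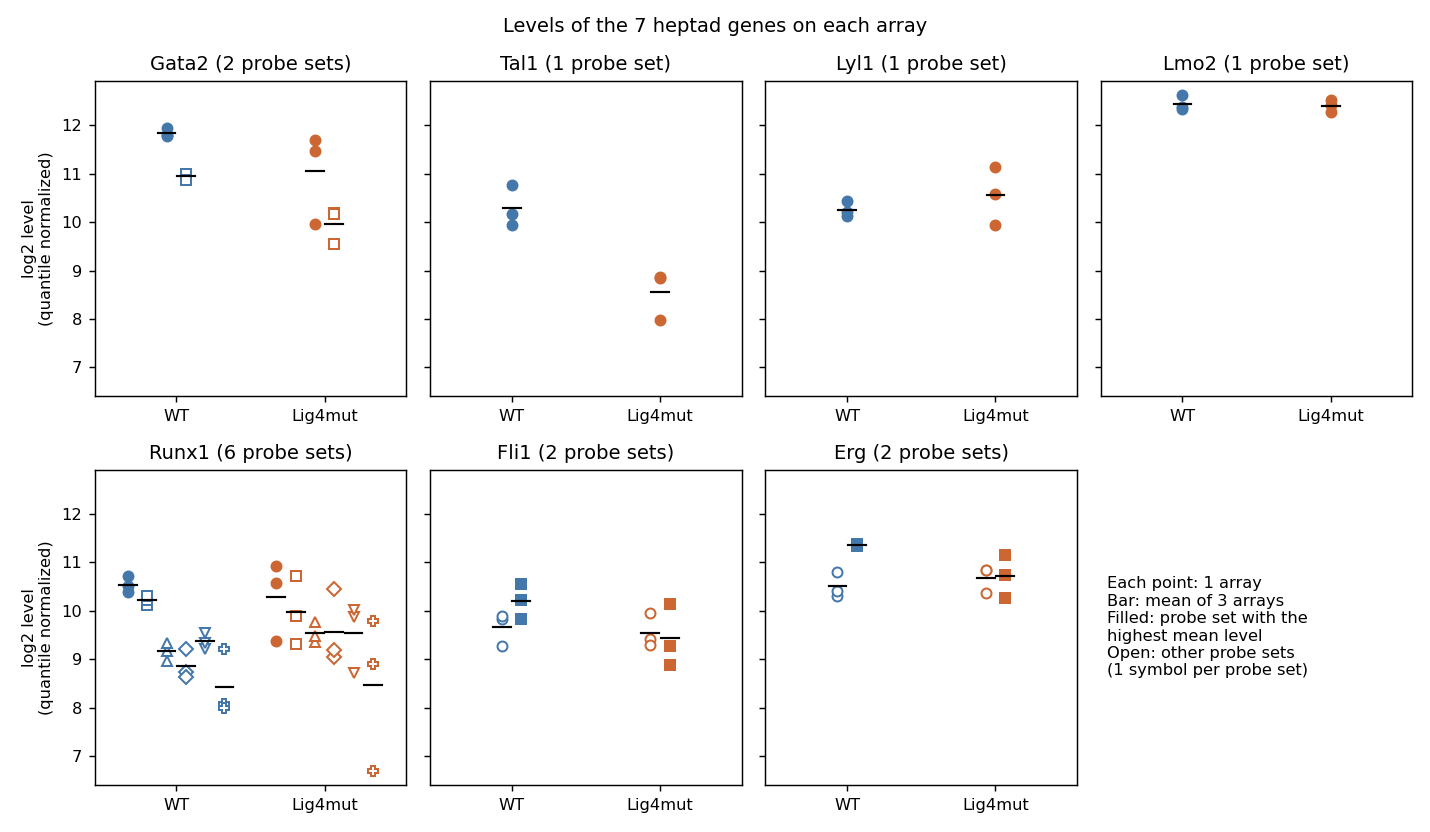
Log2 level of each heptad gene on each array after quantile normalization, with WT in blue and Lig4mut in orange, 1 symbol per probe set and a bar at the mean of 3 arrays; filled symbols are the brightest probe set. The Tal1 points of Lig4mut, 7.98 to 8.87, lie below the WT points, 9.93 to 10.77, while those of Lmo2 stay between 12.28 and 12.61 in both genotypes.

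Gata2 had lower values in both of its probe sets. In probe set 1450333_a_at the levels were 10.98, 10.998 and 10.88 in WT and 10.18, 9.55 and 10.16 in Lig4mut, with no overlap. The difference was -0.99 ± 0.21 (SE), 1.98-fold, with a 95% interval of -1.52 to -0.45 (limma over all probe sets, adjusted p = 0.145). The brighter probe set, 1428816_a_at, stood at 11.79, 11.95 and 11.77 in WT and at 11.70, 9.97 and 11.47 in Lig4mut. Lig4mut replicates 1 and 3 were only slightly under the WT range there, and replicate 2 was far below it. Its difference was -0.79 ± 0.49 (SE), with an interval of -2.03 to 0.45 (limma over all genes, adjusted p = 0.433). Without Lig4mut replicate 2 it was -0.25, whereas 1450333_a_at stayed at -0.78. The WT arrays agreed closely for this gene, with an SD of 0.10 and 0.07 in the brighter and dimmer probe set, against 0.94 and 0.36 in Lig4mut.

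Lyl1, the relative of Tal1 that can stand in for it in adult HSC, had values of 10.44, 10.12 and 10.20 in WT and 9.93, 11.14 and 10.58 in Lig4mut. The Lig4mut arrays lay on both sides of the WT range. The difference was 0.30 ± 0.34 (SE) with an interval of -0.55 to 1.15 (limma, adjusted p = 0.671). It was 0.0016 without Lig4mut replicate 2 and 0.61 without Lig4mut replicate 1.

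Lmo2, the bridging subunit, was the steadiest member. Its levels were 12.61, 12.33 and 12.37 in WT and 12.52, 12.28 and 12.41 in Lig4mut, and the groups overlapped throughout. The difference of -0.04 ± 0.15 (SE) had an interval of -0.41 to 0.34 (limma, adjusted p = 0.926), and it was 0.27 with arrays centred on their medians. It was also the member whose spread in Lig4mut, an SD of 0.12, did not exceed that in WT, 0.15.

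Runx1 gave different answers in its 6 probe sets, with 2 lower and 4 higher in Lig4mut and differences from -0.25 to 0.69. The brightest, 1422864_at, was at 10.52, 10.40 and 10.71 in WT and 9.37, 10.92 and 10.57 in Lig4mut. Its replicate 1 of Lig4mut was low and the others were in or above the WT range, with a difference of -0.25 ± 0.43 (SE) and an interval of -1.35 to 0.84 (limma, adjusted p = 0.789). The second brightest, 1422865_at, was at 10.12, 10.22 and 10.31 in WT and 10.72, 9.32 and 9.90 in Lig4mut. In that probe set replicate 1 was the high Lig4mut array and replicate 2 the low one, the reverse of the first. Probe set 1427650_a_at was the one separated upwards, narrowly, with 8.96, 9.17 and 9.35 in WT and 9.35, 9.77 and 9.48 in Lig4mut (0.37 ± 0.18 SE; limma, adjusted p = 0.362 over all probe sets). In the deposited values its groups overlapped, with WT replicate 3 at 9.37 and Lig4mut replicate 1 at 9.36. Probe set 1440878_at differed by 0.69 ± 0.44, 1452530_a_at by 0.16 ± 0.39 and 1452531_at by 0.04 ± 0.89. The last spread from 6.70 to 9.79 within Lig4mut, the widest range of the 15. As the mean of all 6 the gene stood at 0.13, so no single direction describes Runx1 RNA in these arrays.

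Both probe sets of Fli1 had a lower mean and overlapped between genotypes, and those of Erg went opposite ways. Erg probe set 1440244_at was at 11.38, 11.34 and 11.37 in WT, nearly constant, and at 11.16, 10.75 and 10.26 in Lig4mut. All Lig4mut arrays lay below WT, with a difference of -0.65 ± 0.25 (SE) and an interval that ended just under 0 (limma over all genes, adjusted p = 0.253). Erg probe set 1425370_a_at was at 10.31, 10.80 and 10.42 in WT and at 10.84, 10.38 and 10.84 in Lig4mut, which overlapped, with a difference of 0.18 ± 0.21. Over both, the mean difference was -0.23. Without Lig4mut replicate 3 the first was at -0.41.

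Fli1 probe set 1433512_at, the brighter, was at 9.83, 10.54 and 10.22 in WT and 8.87, 9.28 and 10.14 in Lig4mut. Replicates 1 and 2 of Lig4mut were below WT and replicate 3 was inside its range, with a difference of -0.76 ± 0.39 (SE) and an interval of -1.75 to 0.22 (limma over all genes, adjusted p = 0.351). Without Lig4mut replicate 1 it was -0.49. Probe set 1422024_at was at 9.26, 9.82 and 9.89 in WT and 9.41, 9.29 and 9.95 in Lig4mut, which overlapped fully, with a difference of -0.11 ± 0.27.

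The disagreement between probe sets of 1 gene was compared within arrays, as the brighter minus the dimmer probe set. For Erg this value was 0.86 ± 0.28 (SD, n = 3) in WT and 0.03 ± 0.54 in Lig4mut, and for Fli1 it was 0.54 ± 0.20 and -0.12 ± 0.37, with no overlap between genotypes in either. The exact two-sided permutation test gave p = 0.1 for both and for 1 pair of Runx1, the smallest value that 3 arrays against 3 allow, and 0.6 after adjustment over the 18 pairs compared. For Gata2 it was 0.88 ± 0.07 against 1.08 ± 0.59 (exact permutation p = 0.6). Probe sets of a gene can read different ends or isoforms of its RNA. The stretch that each one covers was not analysed here.

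**Figure D2:**
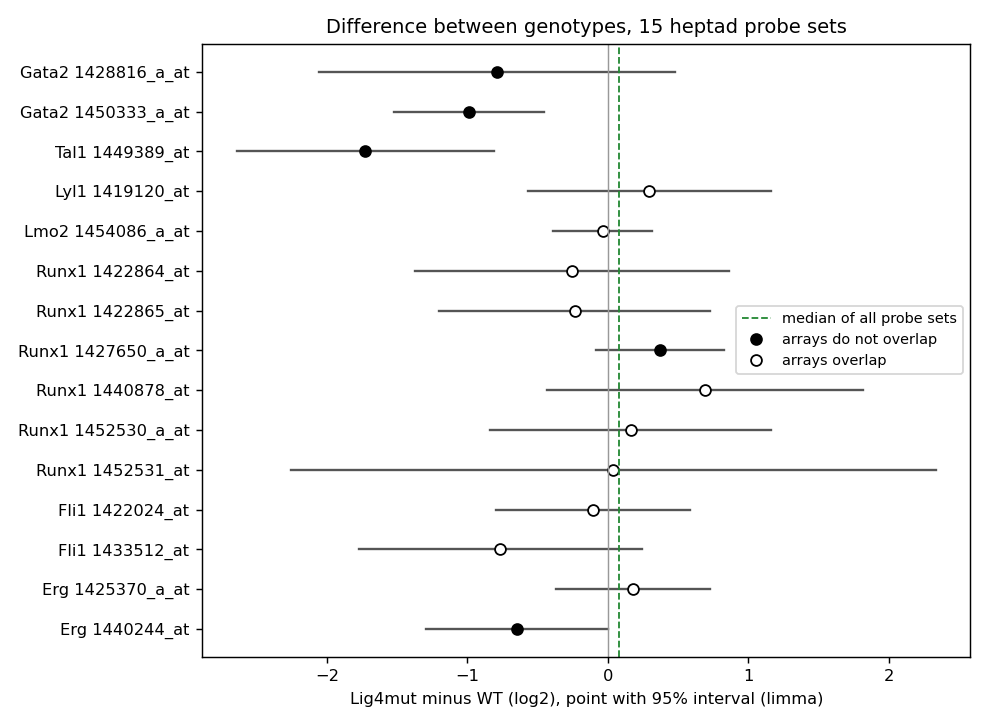
Difference between genotypes for each of the 15 heptad probe sets, as Lig4mut minus WT in log2 with the 95% interval from limma, filled where the 3 arrays of each genotype do not overlap. Tal1 at -1.73 lies farthest from 0, and the 6 Runx1 probe sets scatter from -0.25 to 0.69 around the dashed median of all probe sets at 0.08.

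The Lig4mut arrays differed from each other more than the WT arrays did in nearly all members. The SD was larger in Lig4mut for 14 of the 15 probe sets, with a median of 0.60 against 0.17, while over all probe sets it was larger in Lig4mut for 68.2%, with medians of 0.48 and 0.31. Among the genes as bright as the heptad it was larger for 79.1%, with medians of 0.50 and 0.24, and among the 7 heptad genes for 6. The low array was not the same for each gene. Of the 7 genes, 4 had their lowest value in Lig4mut replicate 1 (Tal1, Lyl1, Runx1 and Fli1), 2 in replicate 2 (Gata2 and Lmo2) and 1 in replicate 3 (Erg). None of the 7 was lowest in a WT array, but of the 15 probe sets 3 were lowest in WT replicate 1 and 1 in WT replicate 2. The share of all genes lowest in a WT array was not computed. The mean over the 7 genes was 10.93, 10.98 and 11.06 in WT and 10.22, 10.46 and 10.61 in Lig4mut. The groups thus did not overlap after quantile normalization. With arrays centred on their medians they did, as Lig4mut replicate 3 then lay above WT replicate 1. Bright genes lay lower as a class, with 62.2% of those as bright as the heptad lower in Lig4mut. Over all 15 probe sets the means were 10.15, 10.34 and 10.33 in WT and 9.84, 9.95 and 10.26 in Lig4mut, and replicate 3 of Lig4mut lay within the WT range.

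**Figure D3:**
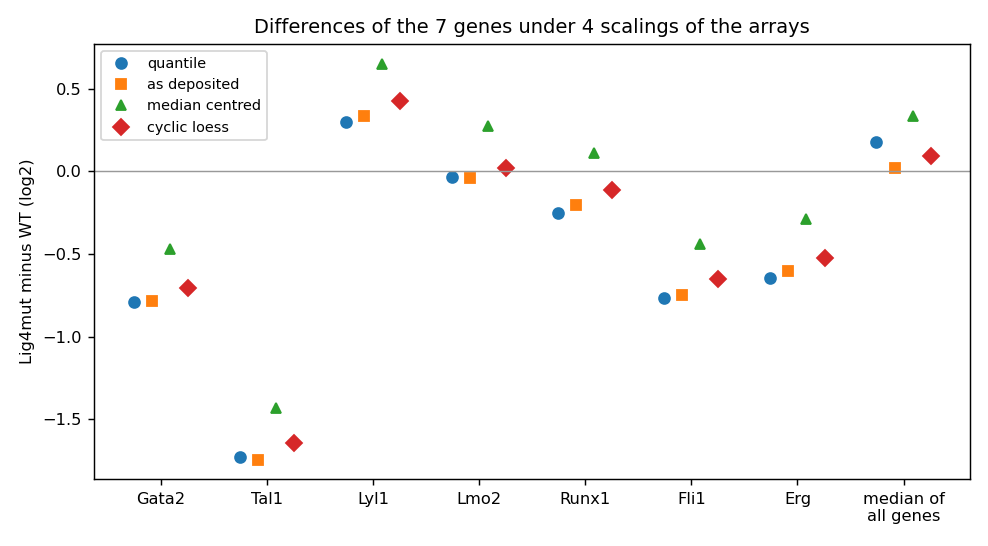
Difference of each of the 7 genes at its brightest probe set, as Lig4mut minus WT in log2, under 4 ways of scaling the arrays, with the median of all genes at the right. Tal1, Gata2, Fli1 and Erg stay below 0 and Lyl1 above it in all 4, while Lmo2 (up to 0.27) and Runx1 (up to 0.11) turn positive when arrays are centred on their medians.

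At the brightest probe set of each gene, the directions of Tal1, Gata2, Fli1, Erg and Lyl1 were the same under all 4 scalings. Those of Lmo2 and Runx1 were not. The dimmer Erg probe set, 1425370_a_at, lay above 0 under all 4, at 0.52 with arrays centred on their medians. The dimmer Fli1 probe set, 1422024_at, turned positive with that centring, at 0.21. With arrays centred on their medians Tal1 was at -1.43, Gata2 at -0.47 and Erg at -0.29, and only Tal1 kept all Lig4mut arrays below WT. Under that scaling Lmo2 was at 0.27 with all its Lig4mut arrays above WT, and the median of all genes moved to 0.33. Relative to that median the 7 genes had a median of -0.62, against -0.82 with quantile normalization.

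Of the genes that work in complexes with the heptad, 11 of 20 lay lower in Lig4mut and 9 higher. Over all genes 38.6% lay lower, and 62.2% of those as bright as the heptad. The median of the 20 was -0.06, against 0.18 over all genes. None was called, with 3 lower and 1 higher at an unadjusted p under 0.05 by limma, where 4.18% of all genes were lower and 15.5% higher. The 3 measured members of the single-stranded DNA-binding protein family, which hold the Ldb1 complex together, had 3 different values. Ssbp2 averaged 11.03 in WT (SD 0.28, n = 3) and 9.66 in Lig4mut (SD 0.37), a difference of -1.37 ± 0.26 (SE; limma, adjusted p = 0.135), with all 4 of its probe sets lower. Ssbp4 was at 8.40 ± 0.16 and 9.67 ± 0.09 (1.28 ± 0.14 SE; limma, adjusted p = 0.125), on its single probe set. Ssbp3 was at 9.65 ± 0.60 and 9.66 ± 0.45, a difference of 0.0086 ± 0.40, with its 2 probe sets in opposite directions. The coactivator acetyltransferase gene Crebbp differed by -1.12 ± 0.19, with 1 of its 4 probe sets higher and -0.45 as their mean. Kdm1a, a histone demethylase that works with Tal1 and Gfi1b, differed by -0.90 ± 0.31. For Ssbp2, Crebbp and Kdm1a all Lig4mut arrays lay below WT and for Ssbp4 above it, 3 and 1 of the 20, where 5.65% and 21% of all genes were so separated.

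For the direct binding partners the genotypes overlapped. Ldb1, the dimerizing core of the complex, differed by -0.40 ± 0.36 (SE), Cbfb, which stabilizes Runx1 on DNA, by -0.43 ± 0.41, and the E protein genes Tcf3 and Tcf12 by -0.32 ± 1.01 and -0.63 ± 0.58. The first 3 shared 1 low array, which was also that of Gata2. In Lig4mut replicate 2 Ldb1 was at 10.15, Cbfb at 10.24 and Tcf3 at 6.87, while replicates 1 and 3 were at 11.27 and 11.35, at 11.74 and 11.06, and at 10.20 and 10.41. Tcf12 instead was lowest in replicate 3, at 8.03. Of the 3 Tcf3 probe sets, 2 lay higher, and the mean difference of the 3 was 0.63. Tcf4, another E protein gene of the list, differed by 0.20 ± 0.27. Among the Lig4mut arrays it was highest in replicate 2, at 11.54 against 10.90 and 10.98. These genes, Tcf4 included, were picked after their values were seen.

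Of the relatives of heptad genes, 11 of 17 measured lay higher and 6 lower, where 38.6% of all genes lay lower. None was called, and the median was 0.35. Arrays were separated upwards for 2 of the 17 and downwards for 1, against 21% and 5.65% of all genes. Tal2, a relative of Tal1, was at 4.46 ± 0.03 in WT and 5.17 ± 0.32 in Lig4mut (0.71 ± 0.20 SE), low values on a scale whose floor is 3. Ets1 was at 6.56 ± 0.40 and 8.30 ± 1.15 (1.74 ± 0.62), separated upwards, but 2 of its 4 probe sets went the other way and their mean was 0.67. Etv5 differed by 0.96 ± 0.41 and had 2 of 3 probe sets lower, with a mean of -0.29, and Etv4 by 0.46 ± 0.28. Gata1, which takes over from Gata2 in red cell and megakaryocyte maturation, overlapped between genotypes, at 8.6, 7.83 and 7.36 in WT and 7.08, 7.69 and 8.44 in Lig4mut (-0.19 ± 0.48); it was picked after its values were seen.

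Of 21 measured genes that have enhancers bound by heptad factors, 12 lay lower and 9 higher. Over all genes 38.6% lay lower, and 62.2% of those as bright as the heptad. None of the 21 was called, and their median was -0.18. At an unadjusted p under 0.05 there were 2 lower genes, Meis1 and Kit, and 0 higher ones, against 4.18% and 15.5% of all genes. These genes and Hlf, 3 of 21, were separated downwards, against 5.65% of all genes and 10.4% of those as bright as the heptad. Meis1, a homeobox factor of HSC, was at 10.57, 11.11 and 10.92 in WT and 9.80, 8.37 and 9.48 in Lig4mut, and Kit, the stem cell factor receptor, at 10.95, 10.70 and 10.73 against 9.62, 9.56 and 10.35. Hlf, a bZIP factor of HSC self-renewal, differed by -1.44 ± 0.59 (SE) and lay between 8.50 and 10.70 in Lig4mut, and the niche ligand gene Angpt1 differed by -0.54 ± 0.25. Angpt1 had both probe sets lower, with a mean of -1.0. Mecom, another self-renewal factor, was at 9.02 in Lig4mut replicate 2 and at 10.87 and 11.21 in replicates 1 and 3. Myeloid and platelet genes of the list overlapped between genotypes, with Spi1 at 0.43 ± 0.59, Gfi1b at 0.11 ± 0.21 and Pf4 at 0.26 ± 0.35. These 3 and Mecom were picked after their values were seen.

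**Figure D4:**
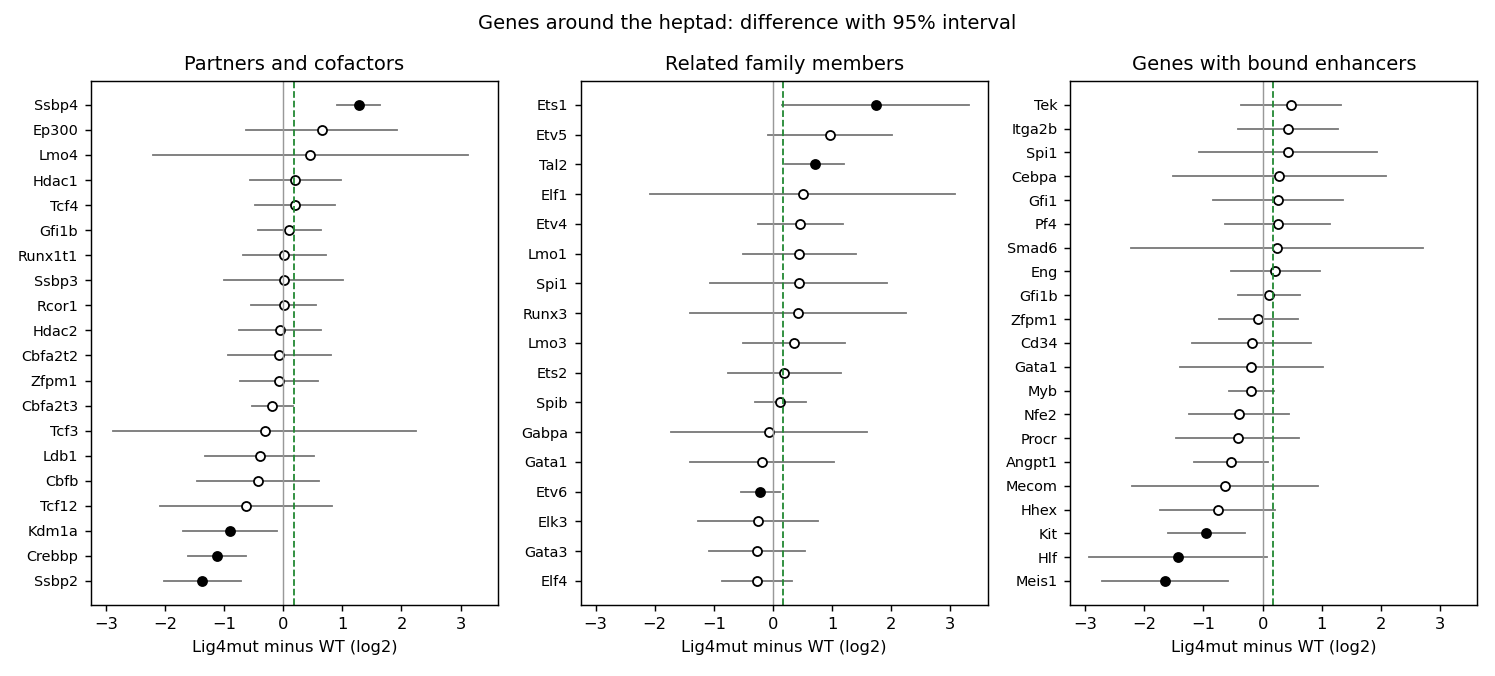
Difference between genotypes with its 95% interval for the measured partners (20 genes), relatives (17 genes) and genes with bound enhancers (21 genes) of the heptad, as Lig4mut minus WT in log2, filled where arrays do not overlap. Most intervals cross 0, and the genes farthest below it are Ssbp2 (-1.37), Meis1 (-1.65) and Hlf (-1.44, with an interval that crosses 0). Those farthest above it are Ets1 (1.74) and Ssbp4 (1.28).

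Genes whose levels ran most like a member over the 6 arrays were found by the mean absolute difference of centred log2 values, for the 6 members that varied by at least 1 log2 unit. Gata2 was matched within 0.05 by Myct1, at 10.59, 10.99 and 10.71 in WT and 10.66, 8.89 and 10.40 in Lig4mut, and next by Pcmtd2 (0.07). Tal1 was most like the histone methyltransferase gene Kmt5b (0.17) and Isca2 (0.20), and Erg most like Orc3 (0.06) and Lonrf1 (0.07). For Lyl1 these genes were Higd1a (0.05) and Shmt2 (0.06), for Runx1 Synj2bp (0.10) and Nxf1 (0.11) and for Fli1 Tmem223 (0.09) and Nop2 (0.12). These are the closest of 18193 genes over only 6 arrays, a description with no test.

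Markers were checked for the label and for what moves with the members. Slamf1, which encodes CD150, had a WT mean of 9.64 ± 0.50 (SD, n = 3) and a Lig4mut mean of 9.88 ± 0.92. In the same order Procr stood at 10.89 ± 0.14 and 10.46 ± 0.77, and Cd48 and Flt3, which mark later progenitors, at 6.19 ± 1.14 and 5.48 ± 0.41 and at 7.80 ± 0.19 and 7.05 ± 0.68. Ly6a was not analysed here. Lig4 itself was at 7.53, 6.66 and 7.63 in WT and 4.97, 3.16 and 3.10 in Lig4mut (-3.53 ± 0.61 SE; limma, adjusted p = 0.13). Lig4mut replicates 2 and 3 lay near the floor of 3, which limits the size this difference could take. Mean levels of the 11 measured HSC genes, Kit and Hlf among them, were 9.56 to 9.85 in WT and 8.82 to 9.53 in Lig4mut. Of the 11, 9 were lower, where 38.6% of all genes and 62.2% of those as bright as the heptad were.

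Most endothelial genes had higher values in Lig4mut. Of the 12 endothelial markers 11 had higher values and 1 lower, where 38.6% of all genes were lower, with mean levels of 8.06 to 9.42 in WT and 9.0 to 9.86 in Lig4mut, and Pecam1 (1.48 ± 0.41 SE) and Cdh5 (1.97 ± 1.03) were separated upwards, 2 of 12 where 21% of all genes were. Cdh5 was at 6.80 in WT replicate 1 and 10.12 to 11.57 on the other arrays, and it was at 0.84 without that array. The mean of the granulocyte genes singled out Lig4mut replicate 2, the array in which Gata2 was lowest, but not every gene did. Their mean level was 10.81 there, 6.32 and 6.94 in the other Lig4mut arrays and 7.85 to 8.88 in WT. S100a9 was at 13.14 there, at 6.00 and 6.49 in the other Lig4mut arrays and at 11.26 to 11.69 in WT. Prtn3 was at 11.60 there and at 7.13 to 9.15 on the other arrays. Ngp was at 8.91 there, within its WT range of 8.27 to 10.03. Camp was at 9.30, close to its WT range of 8.93 to 9.14. B cell genes were higher for 8 of 8 members and T cell genes for 6 of 6, where 38.6% of all genes were lower. The share among genes as dim as these was not computed. Mean levels of the B cell genes were low, at 6.11 to 6.23 in WT and 6.39 to 7.19 in Lig4mut. The 4 of smallest p, Ighm, Ebf1, Pax5 and Igll1, differed by 0.84, 0.74, 0.68 and 1.47. In the deposited values these differences were 0.72, 0.42, 0.36 and 1.18. Megakaryocyte genes ranged from 7.74 to 8.45 in WT and from 7.86 to 8.66 in Lig4mut, T cell genes from 5.11 to 5.69 and from 5.69 to 6.24, mast cell and basophil genes from 5.48 to 5.94 and from 5.77 to 6.08, and erythroid genes from 5.87 to 6.10 and from 5.87 to 6.05. The part of any of these in the members' values was not tested. Without Lig4mut replicate 2, Gata2 went from -0.79 to -0.25, Tal1 from -1.73 to -1.88, Erg from -0.65 to -0.66 and Lyl1 from 0.30 to 0.0016. Runx1 went from -0.25 to -0.57, Fli1 from -0.76 to -0.69 and Lmo2 from -0.036 to 0.026.

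**Figure D5:**
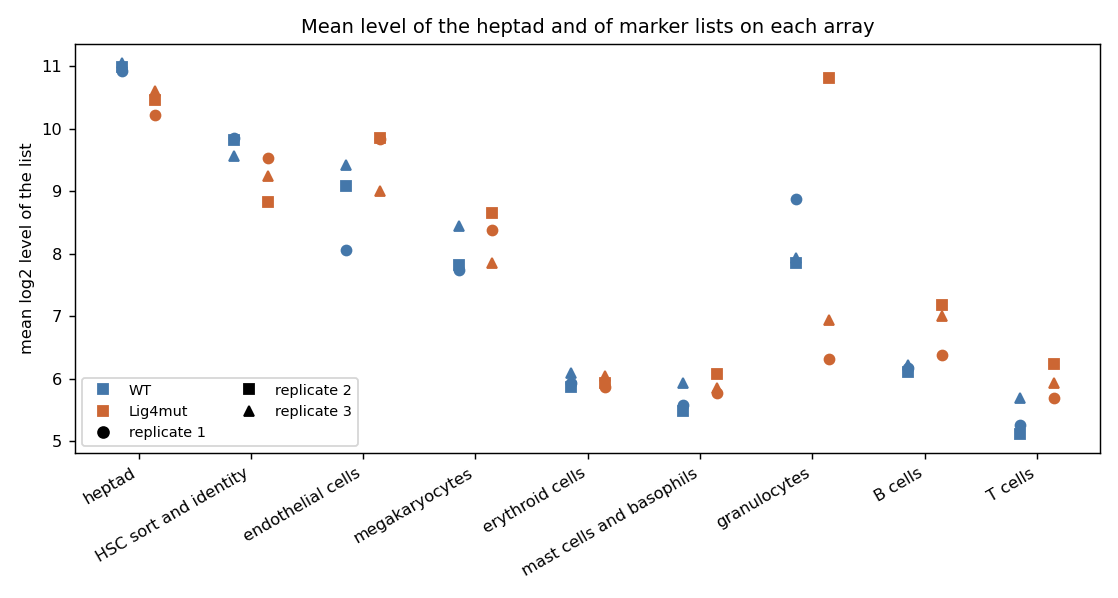
Mean log2 level of the 7 heptad genes and of the measured genes of each marker list on each array, WT in blue and Lig4mut in orange, with a symbol per replicate. After quantile normalization the heptad mean is lower on all 3 Lig4mut arrays (10.22 to 10.61, against 10.93 to 11.06), which median centring did not keep. The granulocyte mean of Lig4mut replicate 2 stands apart at 10.81.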

How the data were processed

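Total RNA of 6 samples of sorted HSC, 3 WT and 3 Lig4mut, was hybridised to 1-colour Affymetrix arrays. The authors deposited log2 values per probe set made with RMA, per the submitters' processing notes, without a version. The lowest deposited value was 3 on each array. Deposited medians were 6.29 to 6.34 in WT and 5.97 to 6.05 in Lig4mut, so the log2 values were quantile normalized over the 6 arrays. The sources used here do not say whether RMA was run on both genotypes together. If it was not, part of any difference between genotypes could come from processing, gene by gene, which quantile normalization does not remove.

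Of 45101 probe sets, 64 controls, 932 with several genes and 9160 with none were left out. Symbols came from the platform annotation, and 34741 probe sets were matched by gene identifier to the RefSeq table of GRCm38.p6. A gene was read from its probe set with the highest mean. Genes and, separately, all probe sets were fitted with limma 3.58.1 in R 4.3.3 (lmFit, eBayes, two-sided, no filter), with Benjamini-Hochberg adjustment over the whole table and a threshold of 0.05. The fit was tested on simulated data for the sign and mean error of planted changes. The simulation gave both genotypes the same spread per gene, so it did not cover the larger spread seen in Lig4mut.

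Members and gene lists were chosen with earlier results of these data known. Named genes are the members, the up to 4 genes of smallest p in each list, the defining sort markers and the 2 genes most like each member. Ldb1, Cbfb, Tcf3, Tcf4, Tcf12, Ssbp3, Gata1, Mecom, Spi1, Gfi1b and Pf4 were added after their values were seen. Alternatives were other scalings, a block, leaving out arrays, a dim filter, other moderation, array weights and probe set means.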

Additional observations from a re-analysis of the deposited data

How the results depend on the processing

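No heptad gene or probe set passed the threshold under any of the 14 gene-level or 13 probe-set-level alternatives, and no gene of the partner, relative or enhancer lists did. Adjusted p-values by limma ranged from 0.113 to 0.362 for Tal1, from 0.230 to 0.645 for Gata2 and from 0.137 to 0.529 for Erg. Directions of these, of Fli1 and of Lyl1 as genes held in all 14. Differences that changed sign were, with arrays centred on medians, those of Lmo2 (0.27), Runx1 (0.11 in 1422864_at and 0.086 in 1422865_at) and Fli1 1422024_at (0.21); with cyclic loess, Lmo2 (0.023); with the mean of probe sets, Runx1 (0.13); and for Runx1 1452531_at, the values as deposited (-0.040) and array weights (-0.11). Leaving out 1 array gave -0.096 to 0.052 for Lmo2, -0.57 to 0.20 for Runx1 and its probe set 1422864_at, -0.60 to 0.093 for 1422865_at, -0.074 to 0.58 for 1452530_a_at, -0.62 to 0.92 for 1452531_at and -0.31 to 0.020 for Fli1 1422024_at. The cause was not tested. Over all genes 2 passed; 0 passed with the replicate block, with dim genes left out, with the mean of probe sets and without any 1 array, where unadjusted limma p-values were under 0.05 for between 1449 and 4096 genes, and 4 passed with trend and robust moderation. The replicate block pairs same-numbered arrays, which deviated together with r of only 0.036, 0.010 and -0.032 across genes. The labels state no pairing, and these values cannot exclude one. With the block, Tal1 stayed at -1.73 with an adjusted p of 0.302 by limma, and no call of a member changed. The median of the enhancer list relative to all genes, -0.36, was -0.17 with cyclic loess and -0.175 as deposited and with centring, and that of the heptad, -0.82, was -0.37 with the mean of probe sets. With 3 arrays per genotype and WT and Lig4mut distributions that differ as deposited, a common shift of bright genes and an effect of the scaling cannot be told apart.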
